A study of Homo sapiens with 14 samples.

Results

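EM1 is a clone of SUM149PT, an established human cell line that came from an inflammatory breast cancer and lacks the oestrogen and progesterone receptors. Here EM1 was compared with the unselected line, called Parental, by ATAC-seq, in which a transposase inserts sequencing adapters where chromatin is open. The comparison rests on 4 of the 14 libraries of the series, chosen by their labels: 2 of EM1 and 2 of Parental. The other 10 libraries, 2 each of the clones E, EM2, EM3, M1 and M2, entered the statistical fit, and EM3 and EM2 serve below to show where EM1 differs from other clones. What the clone letters stand for is not spelled out. By its title the series concerns epithelial-mesenchymal transition (EMT), including an intermediate state. All groups were untreated cells of the same origin, grown as the supplier of cell lines advises, and EM1 is a single clone. Separate cultures for the libraries of a group are not stated, so the spread behind each p-value may be technical.

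In EMT, epithelial cells loosen their junctions and turn on genes of motile, matrix-producing cells, under factors such as ZEB1, SNAI1 and TWIST1. Intermediate states keep epithelial genes such as CDH1 in use beside mesenchymal ones such as VIM. Promoters of widely used genes tend to be open in all cells of a lineage, while distal elements, many of them enhancers, differ more between cell states.

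EM1 and Parental differed at few regions. Of 65771 regions tested, 408 (0.62%) were called different at an adjusted p under 0.05 by edgeR's quasi-likelihood test, 221 (0.336%) higher and 187 (0.284%) lower in EM1. The falls included a stretch of chromosome 20, from 2 to 9 Mb, in which the summed scaled counts of EM1 were 51.9% of Parental. Another was a stretch of chromosome 17, from 1 to 11 Mb, with 63.8%. Such counts cannot tell openness from the number of copies of a sequence. Outside such blocks, among the called regions whose signal was above the median and that lay at most 50 kb from a gene end, the largest fall lay at TBX3, a T-box factor of mammary development, with 1.59 ± 0.273 CPM (counts per 1e+06 counted reads) in EM1 and 18.3 ± 1.36 in Parental (mean ± SD, n = 2 libraries each, as throughout). The largest rise under the same limits lay near APBB1IP, an adaptor in integrin activation, with 31.2 ± 7.02 CPM in EM1 and 3.76 ± 0.319 in Parental. Of 23 genes of epithelial and mesenchymal identity, 18 had a region within 1 kb of a gene end. The strongest such region, as at CDH1, was called in none of them. Of all regions 0.62% were called, a share at which 18 regions may well hold no call. At VIM a weaker region, 735 bp beyond the gene, was called higher, and there the mean of every other clone also lay above Parental.

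The EM1 libraries held 11154092 and 13884400 counts in the regions and the Parental libraries 11102268 and 11878329, within the 8138944 to 16786823 of the series. Across regions the log2 CPM of the replicates correlated with r = 0.951 in EM1 and 0.97 in Parental, and the means of EM1 and Parental with r = 0.956. Counts of replicates differed by more than sampling noise, with a chi-square per region of 7.33 in EM1 and 3.89 in Parental. Epithelial markers were open in both groups: 4 of 5 had a region at a gene end, with summed levels of 113 and 108 CPM in EM1 and 141 and 135 in Parental. ESR1 and PGR, the receptors that the line lacks, had none. Of 7 fibroblast markers 5 had such a region (17.3 to 22.2 CPM in sum over the 4 libraries), of 7 endothelial markers 0, and of 7 blood markers 4 (119 to 149 CPM, at SPI1, CD3E, CD14 and CSF1R). None of these marker regions was called.

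The number of regions that differed was small beside the other clones. Against the same Parental libraries the same test called 11.4% of regions in E, 9.13% in EM2, 3.04% in EM3, 42.3% in M1 and 67% in M2. These comparisons share the Parental libraries. EM1 against EM3 called 30 regions (0.0456%), and EM1 against EM2 called 7992 (12.2%), 7.88% higher and 4.27% lower in EM1. The count of 408 depends on single libraries: it was 21 without EM1 replicate 1, 8 without EM1 replicate 2, 7 without Parental replicate 1, 0 without Parental replicate 2 (4740 regions had an unadjusted p under 0.05 there), and 703 without E replicate 1, which is outside the comparison. With offsets that level the libraries along signal strength it was 356, and the split turned from 221 higher and 187 lower to 156 and 200.

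Chromosome 20 held the deepest block. A block here is a run of at least 3 tested windows of 1 Mb, all called in the same direction, where the counts of all regions in a window were summed and tested in the same way. Of 2607 windows 66 (2.53%) were called, 26 higher (0.997%) and 40 lower (1.53%). With library totals in place of trimmed-mean scaling the split was 44 higher and 39 lower. The windows formed 6 blocks, all lower in EM1. With windows of 2 Mb there were also 6, of which 1 was higher, on chromosome 16 from 60 to 66 Mb. The block on chromosome 20 ran over 7 windows, with regions from position 2101655 to 8764605 (hg38, as for all positions). Its 169 regions summed to 1130 and 1130 CPM in EM1 and to 2120 and 2220 CPM in Parental, and the window log2 differences lay between -1.10 and -0.64 (adjusted p from 9.7e-06 to 0.0223, edgeR's quasi-likelihood test). Of the 169 regions, 162 were below 0 and 30 were called lower, with none called higher, and the median log2 difference was -0.88. Of all regions 49.7% were below 0. Every block was picked by the sums of its own regions, so its count of regions below 0 follows in part from that choice.

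The fall in this block touched listed start sites and other regions alike. The 28 regions within 1 kb of a start site in the start-site table had a median log2 difference of -1.03. The other 141, some of which may lie at start sites that the table lacks, had -0.86. Among the start-site regions 27 were below 0 and 15 were called, and their log2 differences ranged from -1.52 to 0.07. The lowest was at NOP56, a core protein of small nucleolar ribonucleoproteins, with 5.7 and 8.37 CPM in EM1 and 20 and 21.1 in Parental (log2 difference -1.52, adjusted p 0.0421). PCNA, the sliding clamp of DNA replication, had 26.6 and 25.8 CPM in EM1 and 49.7 and 56.7 in Parental (-1.02, adjusted p 0.0075). CDC25B, a phosphatase that starts mitosis, had 10.4 and 9.97 CPM against 20.9 and 24.6 (-1.15, adjusted p 0.0158). In each of these, as in every region called lower, the EM1 libraries lay below both Parental libraries. EM3, with 23.8 and 25 CPM at PCNA, sat at the level of EM1. The start-site regions of PANK2 (-1.16), an enzyme of coenzyme A synthesis, MAVS (-1.18), the mitochondrial adaptor of antiviral signalling, SNRPB (-1.16), a splicing protein, TMX4 (-1.03) and the shared region of MCM8 and TRMT6 (-1.03) were also called lower. BMP2, a ligand of the TGF-beta family and the gene of the pathway lists inside the block, had its strongest region at 2.76 and 2.16 CPM against 4.35 and 3.31 (-0.61, adjusted p 0.658).

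The edges of this block could be placed within the windows. The 54 regions before 2 Mb had a median log2 difference of 0.04. From 9 to 18 Mb a shallower fall continued, with a median of -0.42 over 230 regions, all 9 windows below 0 and 4 of them called. From 18 to 26 Mb the median was -0.01, and over the rest of the chromosome it was 0 (1212 regions). In the shallower stretch lay the start site of JAG1, a Notch ligand (58.4 and 64.3 CPM against 102 and 98.6, log2 difference -0.71, adjusted p 0.0281), and that of SNRPB2, a protein of the U2 splicing particle (3.92 and 3.49 CPM against 8.8 and 10.9, -1.37, adjusted p 0.0418). With the median of its window taken away, the SNRPB2 difference was -0.48 (adjusted p 0.712).

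**Figure D1:**
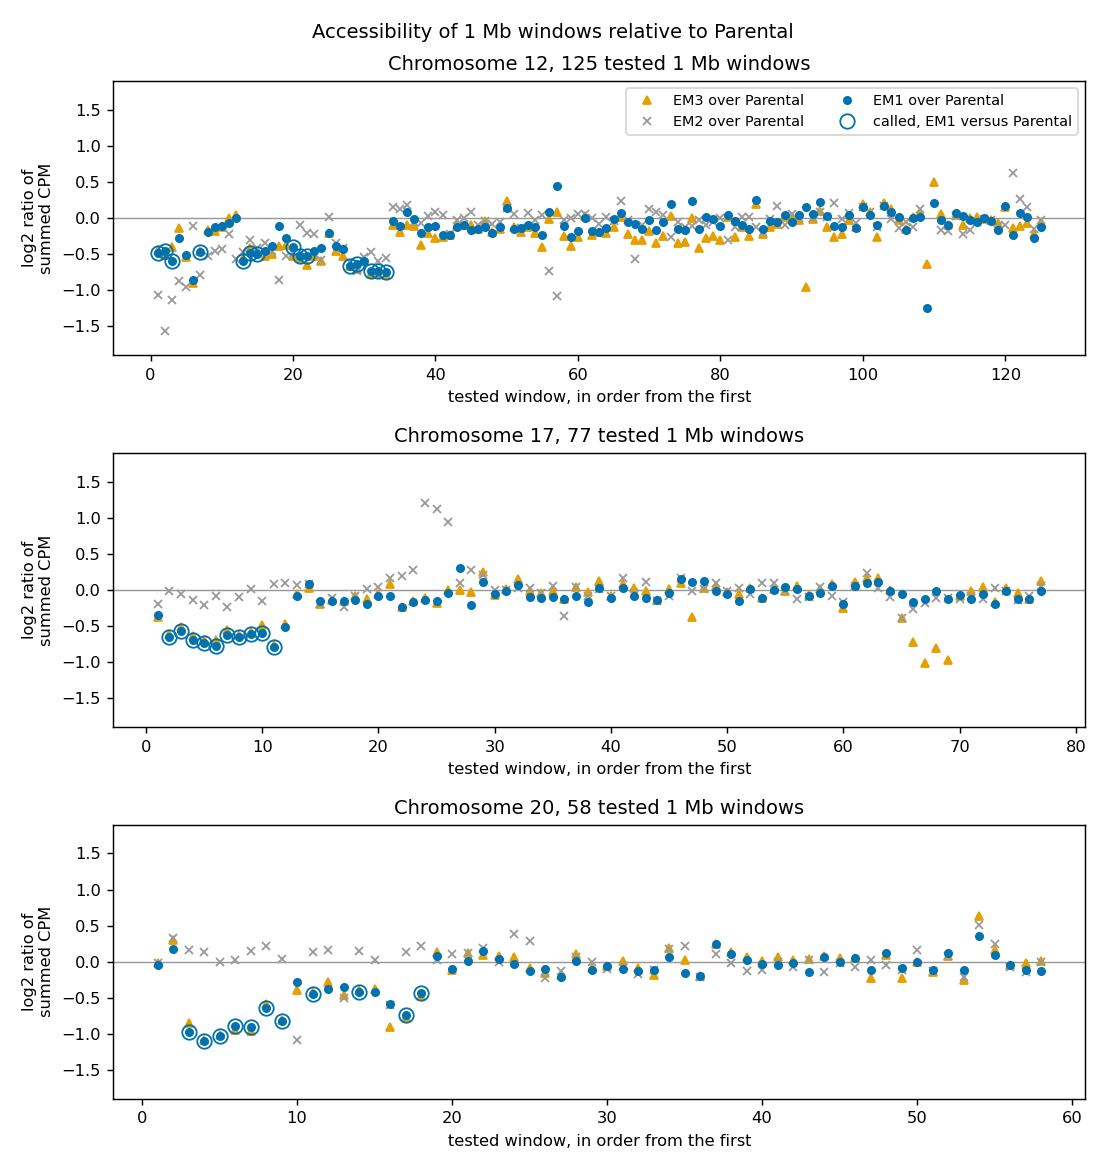
log2 ratio of the summed CPM of each tested 1 Mb window to the Parental mean, along chromosomes 12, 17 and 20, for EM1 (circles, ringed where called against Parental), EM3 (triangles) and EM2 (crosses). EM1 and EM3 both run near -0.9 in the chromosome 20 block and near -0.65 at the start of chromosome 17, where EM2 stays near 0.

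The largest block lay at the start of chromosome 17, from 1 to 11 Mb (regions from position 1061002 to 10698034). Its 327 regions summed to 4070 and 4190 CPM in EM1 and to 6400 and 6550 CPM in Parental. Of these regions 313 were below 0, against 49.7% of all regions. Calls numbered 21 lower and none higher, and the median log2 difference was -0.63 (quartiles -0.79 and -0.43). All 10 windows lay between -0.79 and -0.57. The median was -0.68 at the 99 regions near a listed start site and -0.59 at the 228 others. From 11 to 22 Mb the median was -0.12, and over the rest of the chromosome -0.05.

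In the chromosome 17 block POLR2A, the large subunit of RNA polymerase II, had 12.8 and 12.3 CPM in EM1 and 23.4 and 22.4 in Parental (log2 difference -0.86, adjusted p 0.122), and CLDN7, a claudin of tight junctions, had 15.2 and 11.4 against 20.3 and 19.2 (-0.57, adjusted p 0.479). Neither passed edgeR's test, and DESeq2 called POLR2A (adjusted p 0.0302). With the median of its window taken away CLDN7 was at 0.07. In both the libraries of the groups did not overlap. Across all regions the groups did not overlap in 42.5%. Start-site regions that were called include those of ARRB2, a beta-arrestin (-0.77, adjusted p 0.0475), EIF5A, a translation factor (-0.80, adjusted p 0.0493), and NAA38, a subunit of an N-terminal acetyltransferase (-0.69, adjusted p 0.0371).

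Chromosome 12 had 4 shorter blocks in its first 33 Mb. The deepest, from 30 to 33 Mb, summed to 902 and 926 CPM in EM1 and 1460 and 1590 in Parental over 80 regions, of which 78 were below 0 and 7 were called lower (median log2 difference -0.69). It holds the start sites of FGD4, an activator of CDC42 (33 and 37.9 CPM against 69.1 and 75.2, -1.02, adjusted p 0.0075), and DNM1L, the dynamin of mitochondrial fission (43.1 and 44.1 against 80.8 and 80.6, -0.89, adjusted p 0.0158). PKP2, a desmosomal plaque protein in the same block, had 36.1 and 31.9 CPM against 58.5 and 65.8 (-0.87, adjusted p 0.0669 by edgeR and 0.00161 by DESeq2). The blocks from 0 to 3 Mb, 12 to 15 Mb and 19 to 22 Mb were milder, with 70.6%, 69.1% and 72.5% of Parental and medians of -0.52, -0.49 and -0.43.

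The block from 12 to 15 Mb held the start of GPRC5A, an orphan receptor induced by retinoic acid, where EM1 had 80.3 and 65.7 CPM and Parental 149 and 130 (log2 difference -0.93, adjusted p 0.016). TEAD4, a partner of YAP in the Hippo pathway, had 15.8 and 15 CPM against 25.2 and 27.8 in the first block (-0.78, adjusted p 0.0918 by edgeR and 0.0118 by DESeq2), and WNT5B, in the same block, had 10.6 and 10.7 against 8.07 and 12.5 (0.05, adjusted p 0.989). RECQL, a DNA helicase in the block from 19 to 22 Mb, had 50.9 and 62.7 CPM against 70.1 and 89.4 (-0.49, adjusted p 0.195). Between the blocks the chromosome was not level: 32 of the first 33 windows were below 0 and 15 were called, but the 5 windows from 7 to 12 Mb lay between -0.19 and 0. From 33 Mb on, the median over 2074 regions was -0.05.

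EM3 lay close to EM1 in all 6 blocks, while the levels of the other clones varied from block to block. As a share of Parental, the chromosome 20 block was at 51.9% in EM1, 52.1% in EM3, 100% in E, 106% in EM2, 109% in M1 and 119% in M2. The chromosome 17 block was at 63.8% in EM1, 66% in EM3, between 92.5% and 94% in E, EM2 and M1, and 52% in M2. Such sums hide single windows. The log2 ratio of E to Parental was -0.52 and -0.60 in the windows from 1 to 3 Mb of chromosome 17. From 3 to 11 Mb it lay between -0.09 and 0.33. From 7 to 8 Mb of chromosome 20 E was at -0.58 and M2 at -3.96. On chromosome 12 every clone was below Parental in all 4 blocks, with EM2 lowest from 0 to 3 Mb (44.3%) and M2 lowest from 12 to 15 Mb (46.9%). All of these shares rest on the same 2 Parental libraries. In the test of EM1 against EM3 none of the 29 block windows was called by edgeR and 0 had an unadjusted p under 0.05, with log2 differences between -0.20 and 0.13. The windows that separated EM1 from EM3 were 6 (0.23%), with 5 higher (0.192%) and 1 lower (0.0384%) in EM1, of which 4 were neighbours on chromosome 17 from 72 to 76 Mb, outside the blocks, and higher in EM1 by 0.55 to 0.88 on the log2 scale.

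**Figure D2:**
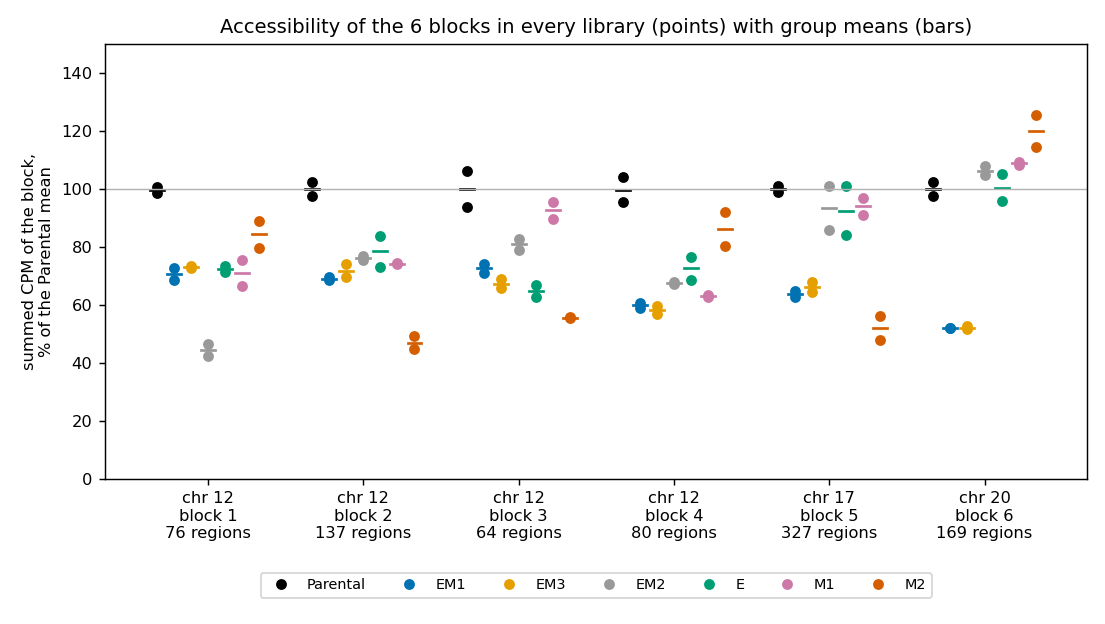
Summed CPM of the regions of each block as a percentage of the Parental mean, with each library as a point and the group mean as a bar. EM1 and EM3 lie near 52% in the chromosome 20 block, where E, EM2, M1 and M2 are at or above 100%.

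A count in a region rises with the openness of a site, with the share of cells in which it is open and with the number of copies of the sequence in the cells, and these cannot be told apart in these counts. Without a single library of the pair, between 25 and 44 windows and 3 or 4 blocks were called: the chromosome 20 block kept 6 of 7 windows and the chromosome 12 block from 30 Mb kept 3 of 3 in each such fit, the chromosome 17 block kept 5 to 8 of 10, the chromosome 12 block from 0 Mb kept 0 without EM1 replicate 2 or either Parental library, and the block from 19 Mb kept 0 without EM1 replicate 1 or Parental replicate 2.

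Promoter sequences are shown for start-site regions that the results turn on, to let the letters be read beside the values. They are RefSeq promoters of build GRCh38.p14, from 250 bases before to 50 after the start of the gene, on the gene's own strand and 5′ to 3′. PCNA stands for the chromosome 20 block (chr20:5119909-5120208, minus strand) and SNRPB2 for the shallower stretch after it (chr20:16729776-16730075, plus strand). KLRG2, a lectin-like receptor gene, is the other fall named by rule that overlaps a promoter (chr7:139483624-139483923, minus strand). PLEKHG5, which encodes a guanine nucleotide exchange factor, had the largest fall of the called start-site regions (chr1:6520043-6520342, minus strand), and MEFV, which encodes pyrin, the largest rise (chr16:3256584-3256883, minus strand). VIM is shown as the mesenchymal gene whose start-site region was not called (chr10:17227991-17228290, plus strand). PCNA, PLEKHG5 and MEFV were chosen after their values were seen. Capitals mark matches to searched motifs on either strand, and no matches of different motifs overlap in these sequences.
PCNA: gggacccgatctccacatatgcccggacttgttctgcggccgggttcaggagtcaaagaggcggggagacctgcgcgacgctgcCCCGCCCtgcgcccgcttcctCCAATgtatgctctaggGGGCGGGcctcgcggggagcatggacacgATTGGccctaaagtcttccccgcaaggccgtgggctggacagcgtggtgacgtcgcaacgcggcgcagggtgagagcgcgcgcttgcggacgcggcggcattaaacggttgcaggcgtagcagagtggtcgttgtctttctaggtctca
SNRPB2: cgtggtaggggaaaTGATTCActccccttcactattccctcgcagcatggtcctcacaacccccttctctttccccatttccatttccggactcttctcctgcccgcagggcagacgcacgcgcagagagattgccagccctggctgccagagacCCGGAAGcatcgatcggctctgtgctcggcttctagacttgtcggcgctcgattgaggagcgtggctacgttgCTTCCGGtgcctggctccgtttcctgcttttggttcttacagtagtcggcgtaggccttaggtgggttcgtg
KLRG2: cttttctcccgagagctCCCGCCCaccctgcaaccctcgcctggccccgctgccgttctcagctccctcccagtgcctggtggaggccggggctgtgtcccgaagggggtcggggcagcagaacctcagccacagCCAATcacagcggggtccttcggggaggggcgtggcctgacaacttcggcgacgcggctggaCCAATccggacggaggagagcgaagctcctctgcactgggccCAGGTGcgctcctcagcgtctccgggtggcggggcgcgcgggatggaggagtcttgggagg
PLEKHG5: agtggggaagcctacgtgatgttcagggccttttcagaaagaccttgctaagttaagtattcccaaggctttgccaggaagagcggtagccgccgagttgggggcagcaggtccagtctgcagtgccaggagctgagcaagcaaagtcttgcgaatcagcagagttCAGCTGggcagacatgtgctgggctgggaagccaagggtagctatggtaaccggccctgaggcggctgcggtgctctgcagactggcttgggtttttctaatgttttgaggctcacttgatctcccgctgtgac
MEFV: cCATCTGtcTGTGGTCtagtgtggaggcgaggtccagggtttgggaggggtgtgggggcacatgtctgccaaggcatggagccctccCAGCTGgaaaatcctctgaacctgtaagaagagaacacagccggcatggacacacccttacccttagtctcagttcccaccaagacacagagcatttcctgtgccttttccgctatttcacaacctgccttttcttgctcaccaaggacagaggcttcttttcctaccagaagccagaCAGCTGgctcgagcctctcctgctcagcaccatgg
VIM: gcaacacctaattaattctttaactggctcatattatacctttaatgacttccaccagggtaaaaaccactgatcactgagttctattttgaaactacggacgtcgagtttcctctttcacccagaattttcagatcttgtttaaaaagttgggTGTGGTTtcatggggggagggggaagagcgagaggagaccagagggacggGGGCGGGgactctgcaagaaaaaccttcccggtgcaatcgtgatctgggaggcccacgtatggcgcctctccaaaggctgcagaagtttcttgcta

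The search covered 12 motifs on both strands. Of all 35116 promoters in the table, AP-1 (TGANTCA) was held by 7.71%, TEAD (GGAATG) by 14%, RUNX (TGTGGTN) by 13%, GRHL (AACCNGTT) by 1.73%, the E-box (CANCTG) by 49.9%, ETS (CCGGAAG) by 10.3%, CTCF by 2.41%, NF-Y (CCAAT) by 34.6%, SP/KLF (GGGCGGG) by 33.1%, CRE (TGACGTCA) by 1.85%, NRF1 by 5.78% and YY1 (AAGATGGCG) by 1.75%. The promoters shown overlap a region, as do 14070 of those in the table. Of these 14070, AP-1 was held by 6.54%, RUNX by 10.1% and the E-box by 43.9%. ETS was held by 19.6% of them, NF-Y by 37.1% and SP/KLF by 52.5%. PCNA held 2 NF-Y and 2 SP/KLF matches, and SNRPB2 held 1 AP-1 and 2 ETS matches. KLRG2 held 1 E-box, 2 NF-Y and 1 SP/KLF match, and PLEKHG5 held 1 E-box match. MEFV held 3 E-box and 1 RUNX match, and VIM held 1 RUNX and 1 SP/KLF match. A match describes the letters only.

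Few of the rises and more of the falls lay at listed start sites. The start-site table lacks some genes, such as CDH1, EPCAM and TBX3, whose start sites count here among other regions. Of the called regions that could be placed against the start-site table, 5 of 212 higher ones (2.36%) and 47 of 182 lower ones (25.8%) lay within 1 kb of a start site, against 17.1% of all regions. Outside the blocks 14.2% of the lower ones did. Counted by overlap with a listed promoter, 56 called regions did so, 3 higher and 53 lower, and 35 of the 53 lay in blocks. The 3 that rose were at MEFV (10.1 and 12.5 CPM in EM1, 5.08 and 3.65 in Parental, log2 difference 1.34, adjusted p 0.0493), at AMPD3, an AMP deaminase (12 and 12.1 against 4.72 and 4.75, 1.32, adjusted p 0.0439), and at TREM1, a receptor of myeloid cells (24.9 and 24 against 14 and 10.9, 0.96, adjusted p 0.0316). At PLEKHG5 EM1 had 0.534 and 0.349 CPM and Parental 5.71 and 5.35 (log2 difference -3.24, adjusted p 0.0075), which rests on 11 counts in EM1 and 126 in Parental.

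Of the 408 called regions 62 lay in blocks, 14 in 4 clusters described below and 332 elsewhere, spread over the chromosomes. The regions named next are the 12 largest rises and 12 largest falls that lie outside blocks, have above-median signal and have a gene end within 50 kb.

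The region near APBB1IP, 30533 bp from the gene, had 36.1 and 26.2 CPM in EM1 and 3.54 and 3.99 in Parental (log2 difference 2.99 with a standard error of 0.488, adjusted p 0.0206). ITGA5, the fibronectin-binding integrin subunit, had a region 9225 bp from its start site with 11.5 and 12.5 CPM against 2.99 and 3.14 (1.91, adjusted p 0.0125). Inside GSN, which encodes the actin-severing protein gelsolin, a region whose nearest gene end belongs to RAB14 had 58 and 47.1 CPM against 8.89 and 12.7 (2.26, adjusted p 0.00597). MAGI1, a scaffold of cell junctions, had 13.4 and 16.2 CPM against 2.63 and 5.18 at a region 8432 bp from the gene (1.87, adjusted p 0.0206), and FAT1, an atypical cadherin, had 5.16 and 12.4 against 2.45 and 2.21 (1.86, adjusted p 0.0388). The FAT1 libraries of EM1 had a larger ratio to each other than those of these other regions.

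ZHX3, a homeobox repressor, had 27.2 and 35.3 CPM in EM1 and 5.89 and 7.38 in Parental at a region inside the gene (log2 difference 2.21, adjusted p 0.0075). A region inside LRIG1, which restrains ErbB receptors, had 20.3 and 18.6 CPM against 3.81 and 5.43 (2.03, adjusted p 0.00887), with SLC25A26 as its nearest gene end. The remaining named rises were inside the methyltransferase gene SMYD3 (2.01), the ubiquitin ligase gene NEDD4L (2.00) and the repressor gene BACH2 (1.72), and near the repressor gene ZBTB18 (1.83) and MRPL32 (2.07), which encodes a protein of the mitochondrial ribosome, with adjusted p between 0.00887 and 0.0439. None of the 12 was called between EM1 and EM3 in the direct test, where adjusted p was 0.792 or higher. EM1 was above EM2 in the regions inside LRIG1, SMYD3 and GSN (log2 differences of 2.24, 2.68 and 1.14, adjusted p 0.000332, 0.000725 and 0.00289).

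The largest of the falls named under these limits was at TBX3, while called falls outside blocks reached -4.32 on the log2 scale without them. The TBX3 region overlaps an end of the gene (chr12:114684075-114684968) and had 1.78 and 1.39 CPM in EM1 and 19.2 and 17.3 in Parental, a log2 difference of -3.40 with a standard error of 0.446 (adjusted p 0.0075). EM3 was as low, with 0.753 and 0.907 CPM, while EM2 had 76.8 and 73.3, E had 47.6 and 14.5, and M1 and M2 averaged 74 and 165. EM1 was below EM2 by 5.43 on the log2 scale (adjusted p 3.76e-05). EM1 and EM3 lay below Parental at this region, and the mean of every other clone lay above it.

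Falls inside genes included ZMIZ1, a transcriptional coactivator, with 2.31 and 1.67 CPM in EM1 and 8.16 and 10.1 in Parental (log2 difference -2.12, adjusted p 0.0197). UNC5B, a netrin receptor, had 10.6 and 7.11 CPM against 38.2 and 30 (-1.93, adjusted p 0.0158). INSIG1, the membrane protein that holds back sterol synthesis, had 10.1 and 12.3 CPM against 44.1 and 36.7 at a region 986 bp from its start site (-1.83, adjusted p 0.0075). In all 3 EM3 sat with EM1, at mean levels of 2.3, 7.16 and 10 CPM.

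The KLRG2 start site had 13.5 and 10.6 CPM in EM1 and 29.7 and 32.1 in Parental (log2 difference -1.35, adjusted p 0.0125), and an end of IRAK1, a kinase of interleukin-1 and Toll-like receptor signalling, had 7.12 and 6.9 against 21.9 and 16.4 (-1.43, adjusted p 0.0125). RHCG, an ammonium transporter of epithelia, had 12.9 and 13.5 CPM against 49.7 and 26.7 at a region 6561 bp away (-1.52, adjusted p 0.0287), and the Parental libraries differed from each other by more CPM than the lower of them did from EM1. The other named falls were near the potassium channel gene KCNH2 (-1.64) and the Golgi protein gene TVP23C (-1.57), at the start of SNRPB2 (-1.37), and inside COL5A1 (-1.31) and the proteoglycan gene NCAN (-1.18), with adjusted p between 0.0181 and 0.0453. With library totals NCAN lost its call (adjusted p 0.0527), as the rise near MRPL32 did with level-dependent offsets (0.0501).

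**Figure D3:**
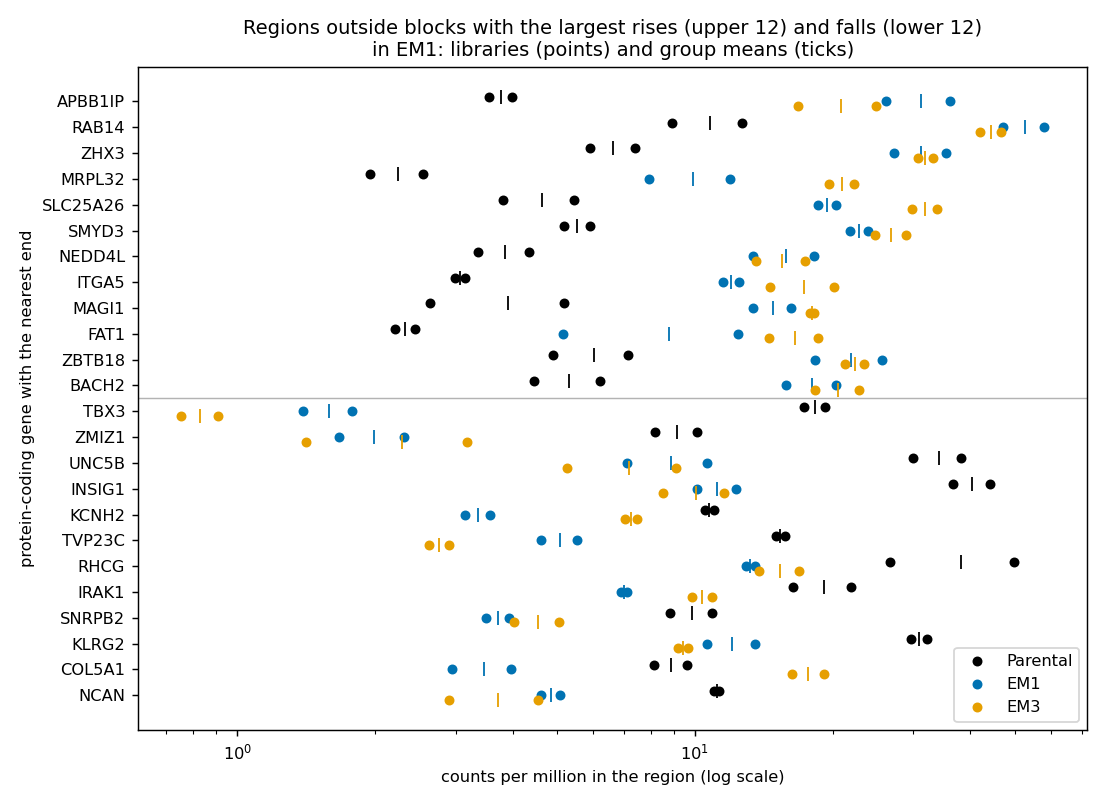
CPM (log axis) of the 24 regions named by rule outside blocks, labelled by the gene with the nearest end, with libraries as points and group means as ticks for Parental, EM1 and EM3. Regions were named only where the libraries of EM1 and Parental do not overlap, and the COL5A1 region is the row in which EM3 lies above Parental and EM1 below it.

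The calls at these regions depended on single libraries of the pair. The signs could hardly turn, since the libraries of EM1 and Parental did not overlap in any called region. Of 44 named regions, those of the lists and clusters below included, 44 kept their sign without each library in turn, 40 lost the call in all 4 such fits and 0 kept it in all. The RAB14 region inside GSN kept its call in 3 of the 4 (adjusted p 0.0258 to 0.0536), and ZHX3 and FAT1 kept theirs without EM1 replicate 1. With the median log2 difference of its 1 Mb window taken away, MRPL32, SMYD3, FAT1, RHCG, SNRPB2, COL5A1 and NCAN lost the call among the 24 (adjusted p 0.0529 to 0.712). So did the list regions of MME, PRLR, VIM and TWIST2 (0.0531 to 0.0732), 10 of the 14 cluster regions (0.0504 to 0.356) and GPRC5A in its block (-0.40, adjusted p 0.382).

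The called regions outside blocks also formed 4 small clusters, each of at least 3 regions called in the same direction with no more than 250 kb between neighbours, a rule set after the values were seen. Inside PHACTR1, a regulator of phosphatase and actin, 5 of 7 regions from position 12761418 to 12851650 of chromosome 6 were called higher and all 7 lay above 0. The 5 summed to 29.2 and 30.6 CPM in EM1 and to 5.17 and 4.41 in Parental, with log2 differences from 1.86 to 3.12. Inside RYR3, a calcium release channel, 3 of 4 regions on chromosome 15 were called higher and all 4 lay above 0. The 3 rose from 11.5 and 12.7 CPM in sum in Parental to 37.8 and 42.2 in EM1. The PHACTR1 region at position 12791461 (2.22, adjusted p 0.0484) was at the edge of the threshold, with adjusted p of 0.0512 under DESeq2's size factors, 0.0505 with a minimum count of 50 and 0.0756 with level-dependent offsets.

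At XYLT1, the enzyme that starts proteoglycan chains, 3 of 8 regions on chromosome 16 were called lower and 7 lay below 0. The 3 fell from 18.7 and 17.9 CPM in sum in Parental to 3.29 and 2.09 in EM1. The deepest of them, 95113 bp outside the gene, rests on 5 counts in EM1 and 118 in Parental (log2 difference -3.85, adjusted p 0.0297). At RXRA, a nuclear receptor, and COL5A1, a fibrillar collagen, 3 of 17 regions on chromosome 9 were called lower and 14 lay below 0. The 3 held 8.19 and 8.02 CPM in EM1 and 24.3 and 21.8 in Parental in sum. EM3 held 37.7 and 38.6 CPM at RYR3, 35.2 and 31 at PHACTR1 and 3.76 and 1.81 at XYLT1, close to EM1. At RXRA and COL5A1 it held 30.2 and 26.1 CPM, above Parental.

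Windows of 1 Mb that rose stood alone or in pairs, and their regions lay far from genes. The 26 called higher had a median of 9.6 CPM per region and lay a median of 178000 bp from a gene end, against 13.3 CPM and 30900 bp over all windows. Weak regions as a whole leaned upward: of 4 equal groups by signal, the weakest had a median log2 difference of 0.13 and the strongest -0.10, and with offsets that level this trend 18 windows were higher and 42 lower. Its part in the risen windows was otherwise not tested. CDH11, a mesenchymal cadherin, lay in a called pair of windows from 64 to 66 Mb of chromosome 16, with log2 differences of 1.25 (adjusted p 0.0014) and 0.51 (adjusted p 0.0134). In the first of these the regions summed to 181 and 169 CPM in EM1 and 77.3 and 69.5 in Parental, and all 14 had log2 differences above 0. Among the falls outside blocks was the window of EGFR on chromosome 7 (55 to 56 Mb, -0.39, adjusted p 0.00654), where EM1 had 775 and 718 CPM and Parental 941 and 1020.

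The regions of 17 gene lists that cover epithelial and mesenchymal identity, pathways and other cell types were called about as rarely as all regions. Of 1554 regions at 362 of their 411 genes, 8 (0.515%) were called, against 0.62% of all regions. Among all regions with a gene end within 50 kb, as list regions have, 0.566% were called. These counts describe the lists only.

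Among mesenchymal genes 2 of 185 regions were called, both higher. Besides ITGA5, a region 735 bp beyond VIM and 10087 bp from its start site was called. It rose from 0.725 and 0.679 CPM in Parental to 3.65 and 5.72 in EM1 (log2 difference 2.49, adjusted p 0.0285), on 16 and 123 counts. All other clones averaged above Parental there, with 4.67 CPM in E, 5.31 in EM2, 7.66 in EM3, 22.1 in M1 and 45.1 in M2. Among EMT transcription factors 1 of 68 regions was called, a region 28054 bp from TWIST2 that fell from 8.89 and 4.84 CPM to 1.51 and 0.767 (-2.45, adjusted p 0.0475, and 0.0522 with library totals). Among collagens and matrix proteases 1 of 114 was called, at COL5A1 and lower (adjusted p 0.0314). In these lists 29, 6 and 15 regions had an unadjusted p under 0.05 by edgeR (15.7%, 8.82% and 13.2%, against 10.3% of all regions). DESeq2 called 2 mesenchymal regions (both higher), 2 of EMT factors (both lower) and 4 of collagens and proteases (1 higher, 3 lower). Over all 65771 regions it called 1197 (641 higher, 556 lower), so these few calls describe the lists only.

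Epithelial lineage lists had a single call each at most by edgeR. In the basal list a region inside MME, the endopeptidase CD10 of myoepithelial cells, rose from 1.63 and 1.78 CPM to 11.3 and 7.81 (log2 difference 2.37, adjusted p 0.0381), which was 1 of 102 regions. In the luminal list a region inside PRLR, the prolactin receptor, fell from 9.98 and 7.55 CPM to 1.78 and 3 (-1.79, adjusted p 0.0414), 1 of 49. By edgeR 18 basal regions (17.6%) and 4 luminal ones (8.16%) had an unadjusted p under 0.05, against 10.3% of all regions. DESeq2 called 3 basal regions, 1 higher and 2 lower, and 1 luminal region, which was lower, against 1197 of all 65771 regions.

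No region was called by edgeR in the other 11 lists. Of 131 regions of epithelial identity genes 104 were shown to lie within 2-fold of Parental (11 had an unadjusted p under 0.05, and DESeq2 called 2). Of 102 regions of desmosome genes 83 were (8 and 2). Of 223 regions of TGF-beta and Wnt genes 159 were (20 and 0), of 156 of AP-1 and Hippo genes 115 (13 and 2), of 91 of NF-kB targets and cytokines 57 (7 and 0), and of 23 of HOX genes 19 (0 and 0). The same held for 57 of 74 regions of cell cycle genes and tumour suppressors (5 and 2) and 48 of 62 of housekeeping genes (7 and 2). For markers of other cell types it was 18 of 46 for fibroblasts (3 and 0), 13 of 37 for endothelium (4 and 2) and 16 of 24 for blood cells (4 and 0). Over all regions 10.3% had an unadjusted p under 0.05 by edgeR, and DESeq2 called 1197 of 65771. Shown to lie within 2-fold were 64.4% of all regions, and 70.4% of those with a gene end within 50 kb, as list regions have.

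**Figure D4:**
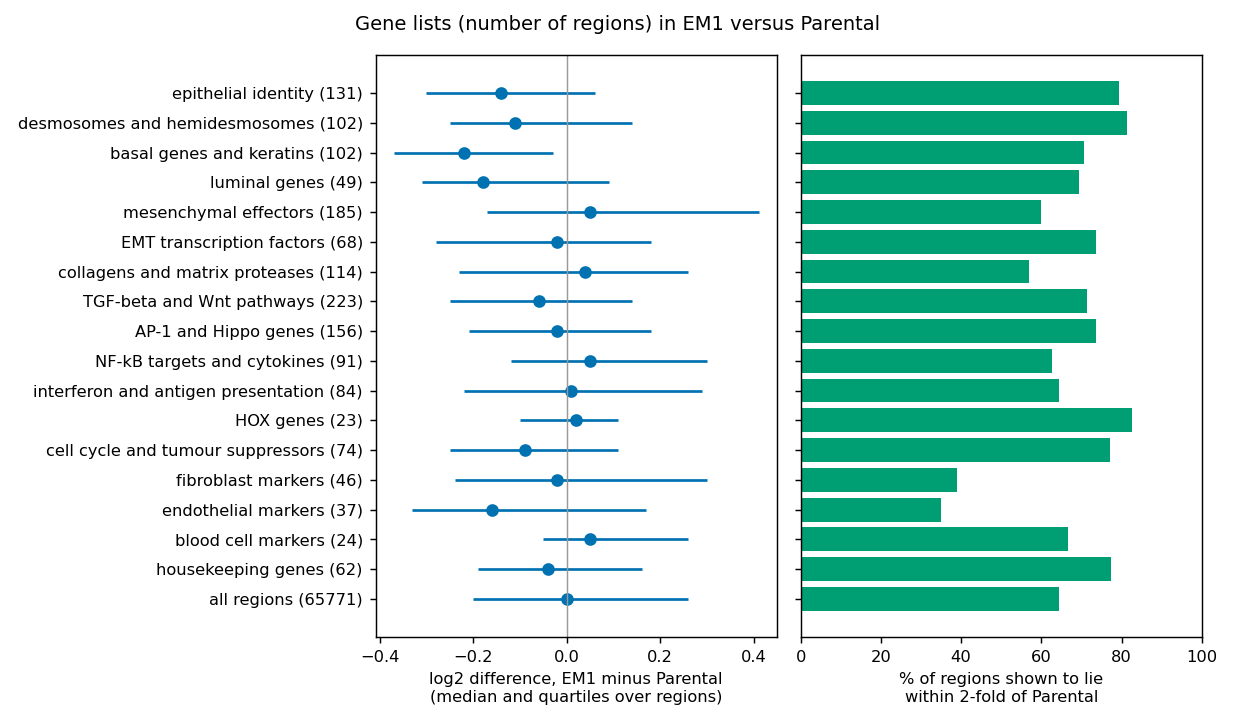
Left, median (point) and quartiles (line) of the log2 difference of EM1 and Parental over the regions of each gene list and over all 65771 regions; right, the share of those regions shown by limma to lie within 2-fold of Parental. The medians lie between -0.22 (basal genes and keratins) and 0.05, and the share is 79.4% for the epithelial list and 64.4% for all regions. List regions have a gene end within 50 kb, and over all regions with that limit the share is 70.4%.

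What did not differ was tested in its own right, since a missed threshold does not show that values are alike. By a pair of limma tests against a 2-fold rise and a 2-fold fall, 42328 of 65771 regions (64.4%) were shown to lie within 2-fold of Parental. The share was 91.2% of the 10665 regions within 1 kb of a listed start site. Of the 51756 others, some of which may lie at unlisted start sites, it was 59.1%, with chromosome 8 left out. It was 94.7% in the strongest of the 4 groups by signal and 22.2% in the weakest, where 2 libraries a group give less precision. No region could be shown to lie within 1.5-fold (0 by limma, with 20803 at an unadjusted p under 0.05). In the chromosome 20 block 16 of 169 regions were shown to lie within 2-fold, and in the chromosome 17 block 94 of 327.

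Of 23 genes of epithelial and mesenchymal identity, 18 had a region within 1 kb of a gene end. The strongest such region was called by edgeR in none, against 0.62% of all regions, a share at which 18 may well hold no call. By edgeR 2 had an unadjusted p under 0.05 (11.1%, against 10.3% of all regions), and DESeq2 called 0. Of the 18 regions 15 were shown to lie within 2-fold. CDH1, which encodes E-cadherin, had 37.8 and 24.8 CPM in EM1 and 48.2 and 31.6 in Parental, a log2 difference by limma of -0.37 with a 95% interval from -0.87 to 0.13. The intervals also lay within 1 log2 unit of 0 at the epithelial genes EPCAM (-0.59 to 0.09), ESRP1 (-0.42 to 0.17), OVOL2 (-0.32 to 0.61) and ELF3 (-0.76 to -0.14). Among the EMT factors they were -0.36 to 0.32 at ZEB1, -0.50 to 0.72 at SNAI1, -0.57 to 0.52 at SNAI2 and -0.46 to 0.45 at TWIST1, and at the mesenchymal genes CD44 and FN1 they were -0.23 to 0.42 and -0.98 to 0.42.

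The other 3 of the 18 could not be shown to lie within 2-fold. KRT5, a basal keratin, had 13.1 and 14.6 CPM in EM1 and 21.9 and 21.6 in Parental (interval from -1.11 to -0.18). The start site of VIM had 32.3 and 31.2 CPM against 17.8 and 24.5 (0.05 to 1.14), and RUNX2, a Runt-family factor, had 7.12 and 11.2 against 4.26 and 5.85 (0.04 to 1.67). The libraries of the groups did not overlap in these 3, as in 42.5% of all regions, and adjusted p by edgeR was 0.418, 0.51 and 0.492. KRT18, TP63, CDH2, ZEB2 and RUNX1 had no region within 1 kb of a gene end.

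EM1 and EM3 differed at 30 regions in the direct test, 14 higher (0.0213%) and 16 lower (0.0243%) in EM1, and 24 of them were not called between EM1 and Parental. Those called in both included regions at TTC29, COL5A1, ANKRD30B, DCC and MYBPC3. COL6A3, which encodes a chain of collagen VI, had a region 20714 bp away with 2.23 and 1.12 CPM in EM1, 26 and 20.2 in EM3, and 1.27 and 0.933 in Parental (log2 difference to EM3 of -3.69, adjusted p 0.000274). At 3 regions in and beside COL5A1 EM1 was lower than EM3 by 2.30 to 3.68 (adjusted p 0.00238 to 0.0163). The region inside COL5A1 at position 134644895 had 2.94 and 3.97 CPM in EM1, 9.61 and 8.15 in Parental and 19.1 and 16.3 in EM3, so that EM1 lay below both. At 3 regions inside KCNMA1, a potassium channel, EM1 was lower than EM3 by 1.22 to 1.92.

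The high side held regions at which EM3 was low and EM1 was not called against Parental, EHF and ARHGAP26 among them. EHF, an epithelial ETS factor, had 13.3 and 11.6 CPM in EM1, 16.6 and 14.1 in Parental, and 2.2 and 1.21 in EM3 (log2 difference to EM3 of 2.71, adjusted p 0.0456). A region inside ARHGAP26, which encodes a GTPase-activating protein, had 9.53 and 10.3 CPM in EM1, 7.71 and 11.3 in Parental and 0.347 and 0.605 in EM3 (4.03, adjusted p 0.000241). A region inside ELK3, an ETS factor, had 16.4 and 11.6 CPM in EM1 and 0.405 and 0.605 in EM3 (4.43, adjusted p 0.000241), with 5.99 and 7.3 in Parental. Other regions higher in EM1 than EM3 were near or inside FASLG, RAP2A, ANKRD30B, CCDC71L, PTPRK, CDC42EP4, MYO5C, GPR37L1, DCC and SQOR, and the other lower ones near or inside TTC29, CHSY1, ADAMTS17, SHISA9, PLXNA2, NFIB, MYBPC3, OTUD7A and MAP3K20. With only the EM1 and EM3 libraries in the fit 0 regions were called by edgeR (2930 at an unadjusted p under 0.05), without a single library of this pair 6 or 7, without E replicate 1 84 and by DESeq2 220.

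The 408 regions were chosen by the difference of EM1 from Parental, so their levels in other clones are given as a description. The 221 that rose had a median log2 ratio to Parental of 1.84 in EM1, 1.87 in EM3, 1.77 in M1, 0.58 in EM2, 0.55 in M2 and 0.14 in E. The 187 that fell had a median of -1.73 in EM1, -1.28 in EM3, -0.60 in M2, -0.28 in M1, -0.27 in EM2 and 0.20 in E. The ratios share the Parental libraries.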

How the data were processed

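Open chromatin was measured by ATAC-seq in 14 libraries, 2 for each of 7 groups. The authors deposited 1 table of raw counts of reads in 65774 regions. Tools listed in the submitters' processing notes, with no role given, are Bowtie2 2.2.6, featureCounts, MACS2 2.1.1, cutadapt 1.9.1, deepTools, bcl2fastq 2.20.0.422 and Picard, and the build is hg38. The sources used here do not give how regions were merged or whether reads were shifted for the transposase. Peak lists were not used, since the names of some disagree with the samples they are attached to. Of the table's columns 0 could not be mapped to a library.

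The counts were tested with edgeR 4.0.16 (R 4.3.3; quasi-likelihood test, trimmed-mean scaling, all 14 libraries in the fit, prior count 2, Benjamini-Hochberg adjustment, threshold 0.05). Filtering on low counts (edgeR's filterByExpr, minimum 10) left 65771 regions and dropped 3. Counts summed over windows of 1 Mb with at least 5 regions were tested in the same way, and 3 or more called windows in a row form a block. The common coefficient of variation was 0.208 for regions and 0.0884 for windows. Values within 2-fold were tested with limma 3.58.1 (voom) against both margins. Each region took the name of the closest protein-coding gene end, at most 50 kb away for 66.4% of regions, from RefSeq tables of GRCh38.p14. An exact permutation test of 2 against 2 libraries cannot go below p = 0.333 and was not used.

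Named regions were the 12 largest rises and 12 largest falls that were called, did not overlap between groups, had above-median signal, lay outside blocks and had a gene end within 50 kb. Genes of the lists inside blocks, called list regions, a fixed set of 23 genes, and every region called where 40 or fewer were, are also named, apart from a few results that are not reported here; PLEKHG5, TREM1, AMPD3 and other start-site regions were chosen after their values were seen. The members and lists were chosen with earlier results of these data known. On simulated data with known changes, the region test recovered 1 of 67 changes of 1.5-fold, 13 of 67 of 2-fold and 42 of 66 of 4-fold, with 4 false among 60 calls. The window test recovered 17 of 20 windows set to 0.7 of their level, with 1 false among 18 calls, and the 2-fold test called 81 of 2000 true 2-fold changes. Regions were drawn independently of each other, without noise shared by neighbours, so the figures for windows may be too favourable. Alternatives were library totals, DESeq2 1.42.0 and its size factors, other filters, only the 4 libraries compared, a replicate block, window medians removed, other window sizes, a 1.5-fold margin and each library left out.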

Additional observations from a re-analysis of the deposited data

How the results depend on the processing

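With 2 libraries a group and 8138944 to 16786823 counts a library, the counts of calls moved with the settings. The libraries of the groups did not overlap in any called region, so leaving out a library could hardly turn a sign there. In no setting did a named region that was called turn its sign. Regions that were not called did so in some settings, as ZEB1 (-0.02, and 0.02 with library totals) and SNAI2 (0.01, and -0.01 with DESeq2's size factors) did. The cause of these shifts was not tested. DESeq2's Wald test called 1197 regions (641 higher, 556 lower), 113 windows (41 and 72) in 10 blocks, and 220 regions between EM1 and EM3. With only the 4 libraries compared the count of regions was 1135 (731 and 404), and 0 between EM1 and EM3, where 2930 had an unadjusted p under 0.05 by edgeR. With the median of each window removed 168 regions were called (93 and 75). With library totals 44 windows were higher, and without the regions called on their own 17. Windows of 500 kb gave 106 calls (42 and 64), and windows of 2 Mb gave 40, of which 11 were higher. With a 1.5-fold margin 0 regions were shown within it by limma (20803 at an unadjusted p under 0.05).

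Without E replicate 1, chosen after seeing the data as were the level-dependent offsets, 703 regions (430 higher), 10 blocks and 84 regions between EM1 and EM3 were called. A group left with 1 library was assumed to vary like the others. Without a single library of the pair compared, called regions ranged from 0 to 21 (0 to 12 higher, 0 to 9 lower), windows from 25 to 44 (4 to 16 higher, 20 to 32 lower), blocks from 3 to 4, regions within 2-fold from 27644 to 32056, and calls between EM1 and EM3 from 6 to 7 and between EM1 and EM2 from 3321 to 5351.

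The replicate numbers were not taken as pairing the libraries. Deviations of same-numbered EM1 and Parental libraries correlated with r = 0.268 across regions. Over pairs of groups r ranged from 0.0232 to 0.59, and 19 of 21 pairs were over 0.1. What same-numbered libraries share was not tested, and the counts of calls depend on this choice. A replicate block gave 1595 regions (943 higher, 652 lower), 160 windows (82 and 78) in 12 blocks, 161 regions between EM1 and EM3 and 13953 between EM1 and EM2. With it POLR2A (adjusted p 0.0305), PKP2 (0.0141), TEAD4 (0.0304) and RECQL (0.0417) also passed.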
